A study of Mus musculus with 12 samples.

Results

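The transcripts of 10 genes that restrain entry into the cell cycle were followed in mouse muscle stem cells (MuSCs) before culture, in culture, and in culture under compression. The genes were found by the exact match of their names (10 of the 55335 genes in the deposited counts). They are the 3 Cip/Kip inhibitors Cdkn1a, Cdkn1b and Cdkn1c, which encode p21, p27 and p57, the 4 INK4 inhibitors Cdkn2a, Cdkn2b, Cdkn2c and Cdkn2d, and the 3 pocket protein genes Rb1, Rbl1 and Rbl2, which encode Rb, p107 and p130.

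Cyclin D with Cdk4 or Cdk6, and then cyclin E with Cdk2, phosphorylate the pocket proteins, which releases E2F factors and lets the genes of S phase be transcribed. INK4 proteins bind Cdk4 and Cdk6, and Cip/Kip proteins bind complexes of cyclins with Cdk2 and other kinases, so both families keep pocket proteins in their active form. In resting cells p130 is the pocket protein that forms the repressive DREAM complex with E2F4 or E2F5 and the MuvB core, whereas p107 is itself an E2F target that is made in cycling cells. In muscle, p21 and p57 are known for cell cycle exit during differentiation, and p27 and p57 have been tied to quiescence of MuSCs.

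All cells were ZsGreen+ cells sorted from hindlimb muscle of Pax7-ZsGreen mice (3 to 6 months old by the study's methods), a strain in which the fluorescent protein marks cells that express Pax7. Freshly isolated cells (F) were lysed as they were sorted. 2d-U cells were grown for 2 days and 5d-U cells for 5 days without compression, on plastic coated with Matrigel and fibronectin in a growth medium with serum and FGF. 2+3d-C cells were grown for 2 days uncompressed and then for 3 days under a compression device with pillars. Each group had 3 libraries, and since the labels do not say which of them came from separate animals or cultures, p-values measure the spread between these libraries, part of which may be technical. In bulk RNA, fewer cells of a type and less RNA per cell cannot be told apart.

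Of the 10 genes, 8 had 11 promoter windows in RefSeq (GRCm38.p6, 250 bases before and 50 after an annotated start). They were searched on both strands for TTTNNCGC, a core of E2F sites, which 5.17% of all 32851 windows hold. Matches were found in 3 of the 11 windows, that of Rbl1 and both of Cdkn2a. Those 3 windows are shown with the match in capitals, beside the window of Rbl2, a pocket protein gene related to Rbl1, which held no match. The window of Rbl1 is chr2:157204485-157204784 on the minus strand, and its matches lay 18 to 11 and 8 to 1 bases before the start. The windows of Cdkn2a, chr4:89294570-89294869 and chr4:89282143-89282442, both on the minus strand, belong to 2 separate starts of the gene, which encodes p19ARF and p16INK4a from different first exons, and their matches lay 99 to 92 and 244 to 237 bases before the start. The window of Rbl2 is chr8:91069807-91070106 on the plus strand.
Rbl1: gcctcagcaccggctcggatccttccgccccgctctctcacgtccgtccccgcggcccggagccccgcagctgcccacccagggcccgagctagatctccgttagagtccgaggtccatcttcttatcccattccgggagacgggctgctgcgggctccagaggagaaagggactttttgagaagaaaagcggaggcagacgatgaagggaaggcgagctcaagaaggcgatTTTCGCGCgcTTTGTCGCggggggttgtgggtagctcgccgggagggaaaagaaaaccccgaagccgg
Cdkn2a upstream start: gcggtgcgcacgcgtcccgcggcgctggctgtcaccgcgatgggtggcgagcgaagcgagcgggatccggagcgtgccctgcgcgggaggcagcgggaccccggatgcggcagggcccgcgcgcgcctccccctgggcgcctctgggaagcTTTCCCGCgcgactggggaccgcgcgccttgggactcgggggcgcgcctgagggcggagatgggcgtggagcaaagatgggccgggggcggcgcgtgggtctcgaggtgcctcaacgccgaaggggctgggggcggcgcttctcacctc
Cdkn2a downstream start: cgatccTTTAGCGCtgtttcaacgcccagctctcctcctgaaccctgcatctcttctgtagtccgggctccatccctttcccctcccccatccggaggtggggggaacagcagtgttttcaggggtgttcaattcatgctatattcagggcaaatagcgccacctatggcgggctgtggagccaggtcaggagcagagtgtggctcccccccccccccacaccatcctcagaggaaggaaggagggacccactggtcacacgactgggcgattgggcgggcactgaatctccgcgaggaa
Rbl2: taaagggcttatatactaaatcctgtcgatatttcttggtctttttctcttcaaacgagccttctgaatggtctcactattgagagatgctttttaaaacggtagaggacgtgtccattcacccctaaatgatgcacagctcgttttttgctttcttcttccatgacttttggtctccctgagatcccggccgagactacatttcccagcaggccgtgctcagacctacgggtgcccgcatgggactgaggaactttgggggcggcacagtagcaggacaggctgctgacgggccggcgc
Other motifs searched were the E-box CAGCTG (2 of the 11 windows, Rbl1 and the upstream start of Cdkn1a, against 16.3% of all), TTTGAA of the cell cycle homology region bound by MuvB (2 of the 11, Cdkn2b and Rbl2, against 17.9%) and GTAAACA of FoxO factors (0 of the 11, against 3.65%). No 2 matches overlapped in these windows. A match describes the letters of a window and is not evidence of binding.

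Between 12540745 and 62424851 reads per library fell on genes. Pax7 was detected in every library, at 1.52 to 15.1 RPKM (reads per kilobase of exon, scaled to the TMM-adjusted size of the library), and Myod1 at 297 to 4548 RPKM. 4 libraries, F replicates 4 and 5 and 5d-U replicates 1 and 6, held over 0.5 reads per kb on 2089 genes of families that are silent in muscle, whereas the other 8 held at most 0.22. 2+3d-C replicate 4 stood apart in the genes described here, since it alone of its group held more than 3 reads of Cdkn1b, Cdkn2a, Cdkn2b and Cdkn2c. Over 3 reads were found for all 10 genes in replicate 4, for 6 in replicate 5 and for 5 in replicate 10. The share of the 10766 genes of at least 5 CPM (the same measure without the length) on average that had no read was 1.51% in replicate 4, 3.55% in replicate 5 and 6.63% in replicate 10, beside 4.56% to 6.36% in 2d-U. Values with and without replicate 4 are given below. It was set apart by its reads of these same genes, and it was also the library with the most reads (62424851). Values without it therefore describe replicates 5 and 10 and are not independent support for lower levels in 2+3d-C.

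**Figure D1:**
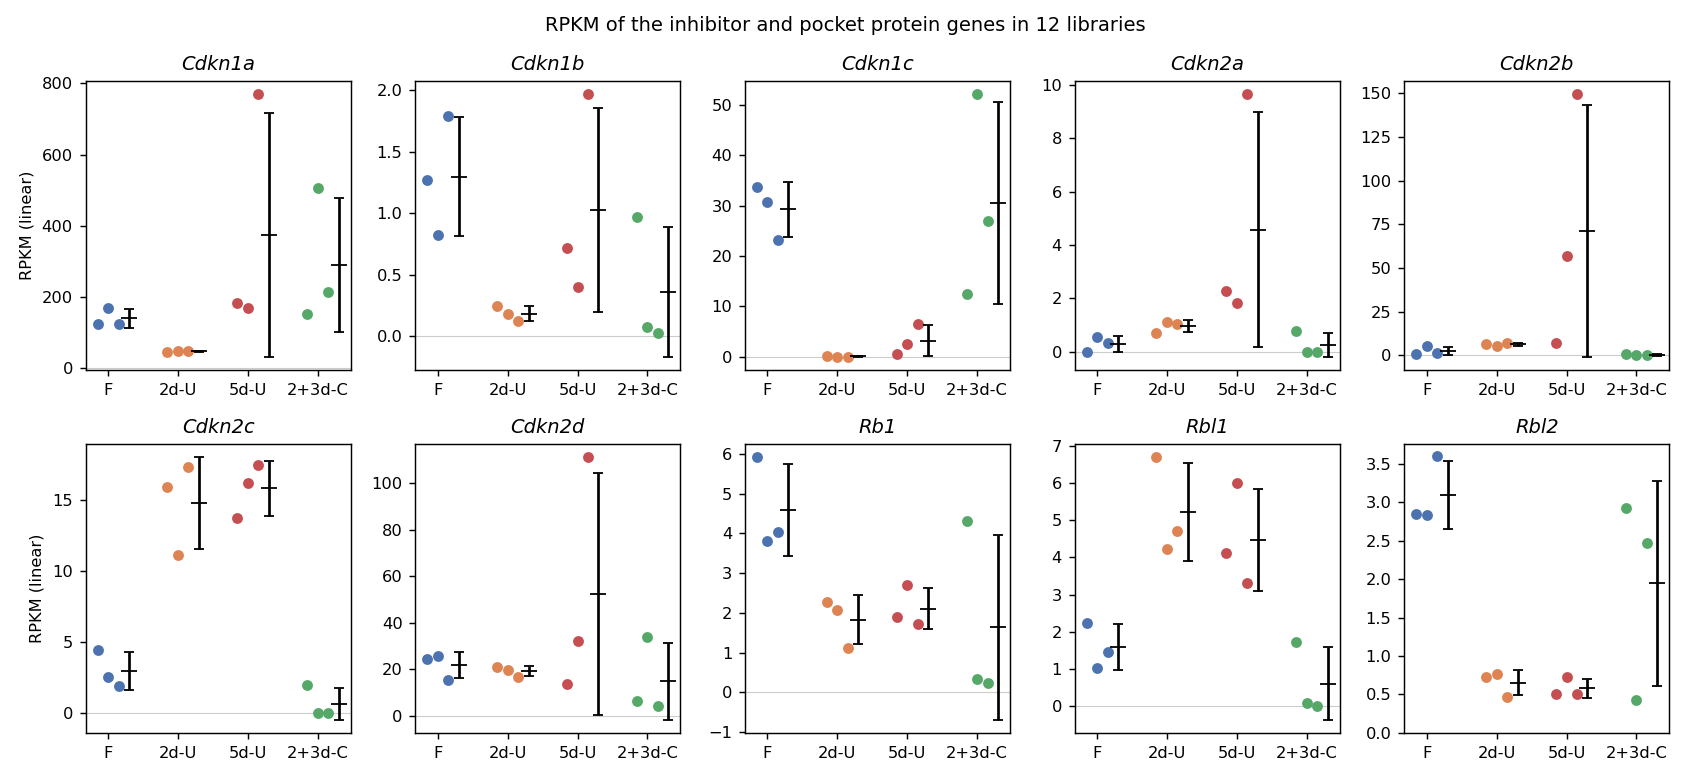
RPKM (linear axis) of each gene in the 12 libraries, with points from left to right in the order of the replicate numbers and the mean ± SD (n = 3) of each group in black. Cdkn1c was above 12 RPKM in the F and 2+3d-C libraries and below 7 in the others, and Cdkn2c was above 11 RPKM in the 2d-U and 5d-U libraries and below 5 in the others.

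Every gene passed the filter on low counts. In 2+3d-C against 5d-U, 3 of the 10 passed the edgeR test at an adjusted p under 0.05: Cdkn1c was higher, in a comparison in which 9.14% of the 22635 tested genes were called higher, and Cdkn2b and Cdkn2c were lower, where 13.4% were called lower. Against 2d-U, 4 passed in 2+3d-C, with Cdkn1a and Cdkn1c higher (16.0% of all genes) and Cdkn2b and Cdkn2c lower (8.63%). Against F, 0 passed in 2+3d-C by edgeR, where 1.94% of all genes were called higher and 4.47% lower, and 1 (Cdkn2b) had an unadjusted p under 0.05. DESeq2 called 1, Cdkn2b, lower in 2+3d-C than F, where it called 3.67% of all genes higher and 14.6% lower. Between the uncompressed cultures, Cdkn1a and Cdkn1c, 2 of the 10, were higher at day 5 (1.87% of all genes higher, 0.243% lower). Against F, 3 were lower in 2d-U, Cdkn1a, Cdkn1c and Rbl2, where 33.3% of all genes were lower and 10.6% higher. In 5d-U against F, Cdkn2b was higher (11.6% of all genes) and Cdkn1c and Rbl2 were lower (8.90%). Without 2+3d-C replicate 4, the counts rose to 7 against 5d-U, 7 against 2d-U and 5 against F, and all calls added were of lower levels in 2+3d-C, for Cdkn1b, Cdkn2a, Rb1 and Rbl1 against 5d-U, for Cdkn2a, Rb1 and Rbl1 against 2d-U, and for Cdkn1b, Cdkn2b, Cdkn2c, Rb1 and Rbl1 against F. In these fits 8.43%, 6.53% and 4.41% of the 27025 genes tested were called lower in 2+3d-C, in the same order. Since replicate 4 was set apart by its reads of these genes, the direction of the added calls follows from that choice. The 3 comparisons of 2+3d-C share its libraries, as those of F share the F libraries. The median log2 fold change of the 10 genes was -1.66 against 5d-U, -0.27 against 2d-U and -1.004 against F, beside medians of -1.05, 0 and -0.76 over all genes tested. It was 1.85 in 5d-U against 2d-U, -0.76 in 2d-U against F and 1.34 in 5d-U against F, beside 1.13, -1.63 and -0.41 over all genes.

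**Figure D2:**
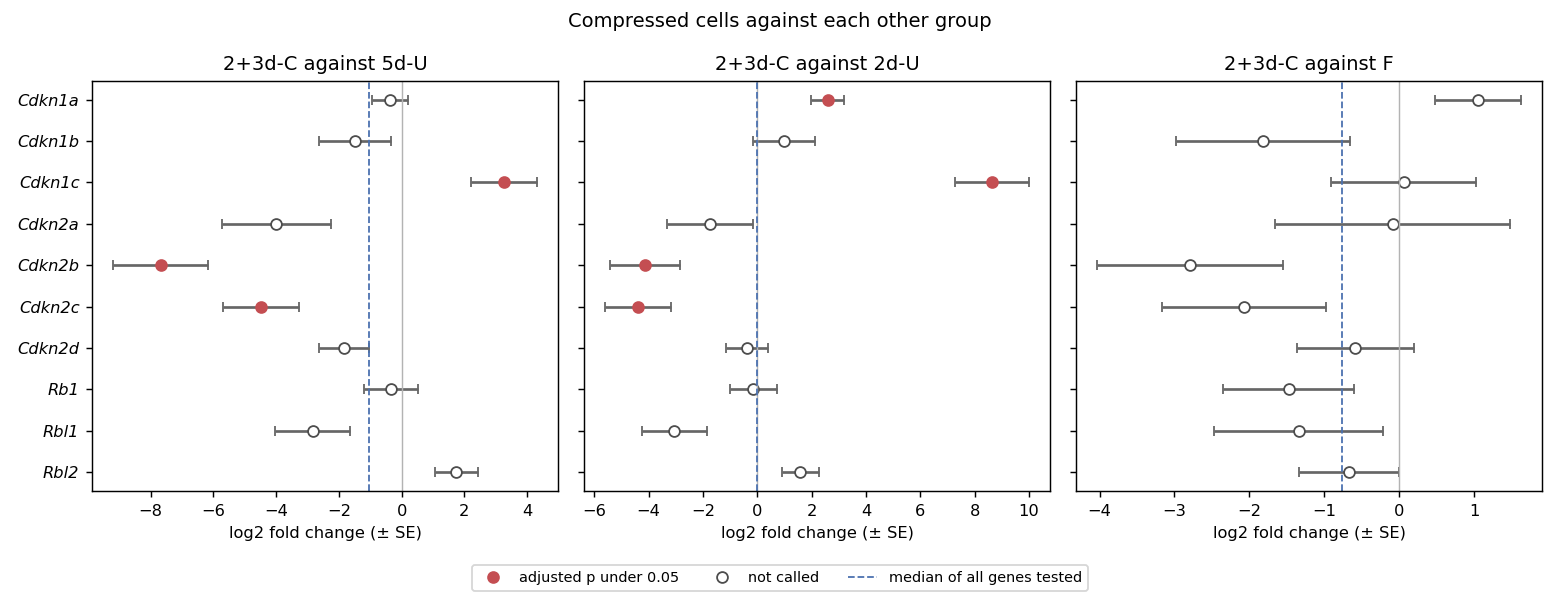
Log2 fold change (± SE, 3 libraries per group) of each gene in 2+3d-C against 5d-U, 2d-U and F, filled where the adjusted p was under 0.05, with the median of all genes tested as a dashed line. Cdkn1c lay at 3.26 against 5d-U, 8.63 against 2d-U and 0.06 against F.

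Cdkn1a (chr17:29090976-29100727, mm10), which encodes p21, the inhibitor induced by p53, had the highest RPKM of the 7 inhibitors in all 12 libraries. It measured 126, 170.4 and 124 RPKM in F replicates 1, 4 and 5, then 46.3, 49.5 and 48.8 in 2d-U replicates 1, 2 and 3. In 5d-U replicates 1, 2 and 6 it measured 182.5, 170.3 and 769.7 RPKM, and in 2+3d-C replicates 4, 5 and 10 it measured 153, 505 and 215. All 2d-U libraries were below those of every other group, while 5d-U, 2+3d-C and F overlapped. The fitted log2 difference of 2+3d-C to 2d-U was 2.59 ± 0.60 (SE, edgeR adjusted p = 0.00665) and stayed called without each of the 6 libraries compared. This difference was not called with a block for the replicate numbers (2.32, adjusted p = 0.2355). That of 2+3d-C to 5d-U was -0.36 ± 0.57 (adjusted p = 0.634), or 0.71 ± 0.48 without 5d-U replicate 6 (adjusted p = 0.287), and that to F was 1.05 ± 0.58 (adjusted p = 0.194). The difference of 2d-U to F was -1.54 ± 0.58 (adjusted p = 0.0457) and that of 5d-U to 2d-U 2.96 ± 0.61 (adjusted p = 0.0290). The first of these did not pass without F replicate 4 (0.111) or 5 (0.0800) or without 2d-U replicate 1, 2 or 3 (0.103, 0.0926 and 0.101) or with a term for the 4 libraries with reads on silent families (-1.02, adjusted p = 0.288), and the second not without 5d-U replicate 6 (1.87, adjusted p = 0.0711) or 2d-U replicate 1, 2 or 3 (0.0680, 0.0656 and 0.0757), after subtraction of the reads that silent families predict (2.72, adjusted p = 0.0539) or with the term (2.30, adjusted p = 0.190). With the replicate block, neither the first (-1.39, adjusted p = 0.355) nor the second (1.88, adjusted p = 0.134) passed. 5d-U exceeded F by 1.42 ± 0.58 (adjusted p = 0.105), which was called without 5d-U replicate 1 (1.77, adjusted p = 0.0372) or 2 (1.79, 0.0490) but measured 0.35 ± 0.46 without 5d-U replicate 6 (adjusted p = 0.822). The exons of Cdkn1a overlap those of a gene on the other strand over 7.68% of their length, and the counts do not use strand. Reads of Trp53, which encodes p53, did not differ detectably between 2+3d-C and 5d-U (90.1 ± 24.8 and 86.2 ± 38.04 RPKM, SD, n = 3; log2 difference 0.06 ± 0.42, adjusted p = 0.918).

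Cdkn1c (chr7:143458339-143461050), which encodes p57 and is imprinted, with the maternal copy expressed, was abundant in F and 2+3d-C. It measured 33.8, 30.8 and 23.2 RPKM in F replicates 1, 4 and 5, and 12.6, 52.1 and 27.0 in 2+3d-C replicates 4, 5 and 10. In 5d-U replicates 1, 2 and 6 it measured 0.576, 2.46 and 6.53 RPKM, and in 2d-U replicate 1 it had 22 reads (0.204 RPKM) and in replicates 2 and 3 no read. The F and 2+3d-C libraries overlapped with each other and lay above every 5d-U library, and every 5d-U library lay above those of 2d-U. The mean was 30.6 ± 20.0 RPKM in 2+3d-C and 29.2 ± 5.47 in F (SD, n = 3), with a fitted log2 difference of 0.06 ± 0.97 (adjusted p = 0.974), or -0.55 ± 1.04 without 2+3d-C replicate 5 (adjusted p = 0.728). 2+3d-C exceeded 5d-U by a log2 difference of 3.26 ± 1.06 (adjusted p = 0.0391). This call was lost without 2+3d-C replicate 5 (0.0922), without 5d-U replicate 1 (0.0718) or 2 (0.0832), without F replicate 4 (0.0537) or 5 (0.0522) and with a term for the 4 libraries with reads on silent families (0.143), and the log2 difference stayed between 2.62 and 3.31 in all of them. It was also lost with a block for the replicate numbers, at a log2 difference of 4.38 (adjusted p = 0.0541). Of the 27 reads of 5d-U replicate 1, 7.78 would be expected from the reads on silent families alone. The exons overlap a gene on the other strand over 30.6% of their length.

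The fitted log2 difference of Cdkn1c in 2d-U to F was -8.57 ± 1.37 (adjusted p = 0.000568), and 2+3d-C exceeded 2d-U by 8.63 ± 1.37 (adjusted p = 0.000502). Both calls held under every alternative run and without each library in turn. Without 2d-U replicate 1, the remaining replicates 2 and 3 held no read. Against 3 reads in each of them the mean of F was at least 648-fold higher and that of 2+3d-C at least 677-fold higher. 5d-U lay above 2d-U by 5.37 ± 1.21 (adjusted p = 0.0382) and its difference to F was -3.20 ± 1.06 (adjusted p = 0.0437). The first was lost without 5d-U replicate 6 (4.31, adjusted p = 0.0747), 2d-U replicate 2 or 3 (0.0671 and 0.0707) or F replicate 1, 4 or 5 (0.0654, 0.0567 and 0.0603), without TMM (4.77, adjusted p = 0.0686), with the compared groups alone (5.01, 0.132), after background subtraction (5.12, 0.0778) and with the background term (5.32, 0.141). The second was lost without F replicate 4 or 5 (0.0854 and 0.0735) or 5d-U replicate 1 or 2 (0.0824 and 0.121), with the term (-3.21, adjusted p = 0.0579) and with the replicate block (-4.44, adjusted p = 0.0544).

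As for Cdkn1c, summed endothelial, smooth muscle or pericyte, fibroadipogenic, glial and erythroid markers were higher in F and 2+3d-C than in both uncompressed cultures. Immune and mature myofiber markers did not follow this pattern. Cdkn1c and the erythroid sum overlapped between F and 2+3d-C. The endothelial, smooth muscle or pericyte, fibroadipogenic and glial sums did not, and were higher in F. The summed level of 5 endothelial markers (Pecam1, Cdh5, Kdr, Tek and Emcn) was 138 to 180.4 RPKM across F, 13.9 to 33.3 across 2+3d-C, 0.363 to 4.65 across 5d-U and 0.486 to 0.896 across 2d-U. That of 5 markers of smooth muscle or pericytes was 78.1 to 131 RPKM in F, 20.9 to 26.0 in 2+3d-C, 0.543 to 1.85 in 5d-U and 0 in each 2d-U library. The 4 fibroadipogenic markers summed to 506 to 1152 RPKM in F, 181 to 357 in 2+3d-C, 5.99 to 34.0 in 5d-U and 0.121 to 2.17 in 2d-U. The 4 glial markers summed to 63.9 to 100.1, 27.5 to 50.5, 0.156 to 2.12 and 0 to 0.517 RPKM in the same order, and the 3 erythroid markers to 126 to 611, 19.9 to 278, 0.0643 to 0.358 and 0 to 0.164. In 2+3d-C against 5d-U, 4 of 5 endothelial, 5 of 5 smooth muscle or pericyte, 2 of 4 fibroadipogenic, 2 of 4 glial and 2 of 3 erythroid markers were called higher and none of them lower by edgeR. The 6 immune markers summed to 32.2 to 40.9 RPKM across F, 0.529 to 1.05 across 2d-U, 0.877 to 9.34 across 5d-U and 0.218 to 4.71 across 2+3d-C, where Ptprc, Adgre1 and Cd3e had 3 or fewer reads in each library, and 1 of them, Ptprc, was called lower than in 5d-U. The 5 markers of mature myofibers summed to 15.7 to 1488 RPKM across F, 31.9 to 56.6 across 2d-U, 103 to 1569 across 5d-U and 29.5 to 109 across 2+3d-C, and 2 of them, Acta1 and Tnnt3, were called lower in 2+3d-C than 5d-U. Of the 8 MuSC markers, 5 were called higher in 2+3d-C than 5d-U, among them Pax7 (log2 difference 1.57, adjusted p = 0.0274) and Myod1 (1.76, adjusted p = 0.0101). The others called, Chodl, Vcam1 and Sdc4, were like Cdkn1c higher in F and 2+3d-C than in both uncompressed cultures. Chodl averaged 96.0 RPKM in F, 0.662 in 2d-U, 0.152 in 5d-U and 159.5 in 2+3d-C. In the same order Vcam1 averaged 115.5, 20.7, 12.15 and 280, and Sdc4 718, 67.0, 59.1 and 1903. Pax7, Myf5, Myod1, Cdh15 and Itga7 instead had their lowest mean in F. Single genes could depart from their list: Dpt, a fibroadipogenic marker, measured 161 RPKM on average in 2+3d-C and 71.1 in F, a difference that was not called, and Sox10, a glial marker, overlapped between these groups. The part of other cell types in the level of Cdkn1c was not tested.

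**Figure D3:**
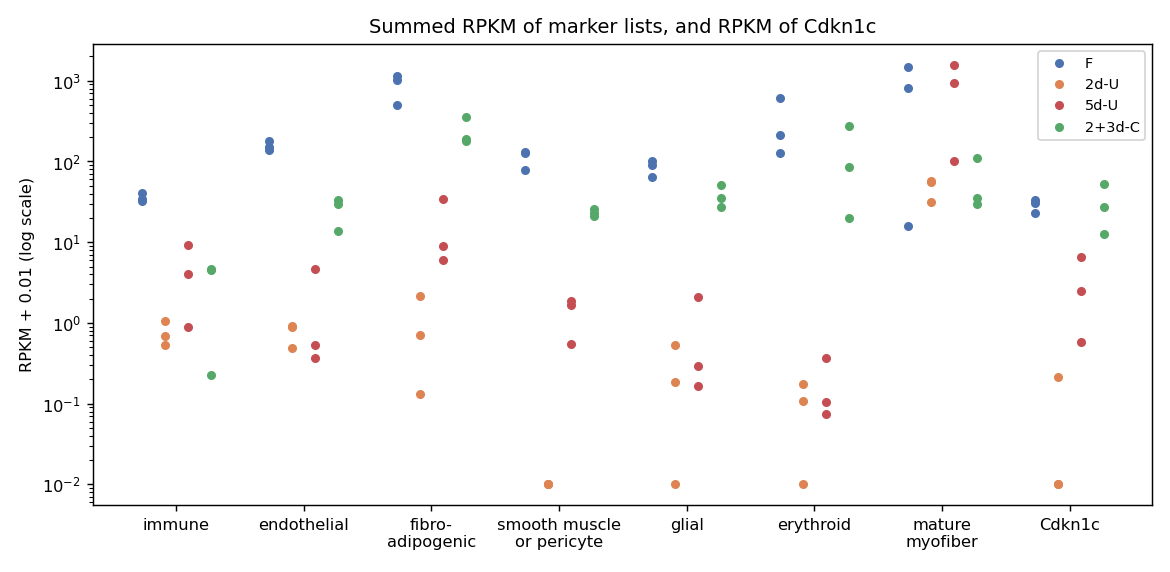
Summed RPKM of each list of markers of other cell types, and RPKM of Cdkn1c, in each library (log axis, after adding 0.01 so that 0 can be drawn). For the endothelial, smooth muscle or pericyte, fibroadipogenic, glial and erythroid lists and for Cdkn1c, the F and 2+3d-C libraries lie above all 2d-U and 5d-U libraries.

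Cdkn1b (chr6:134920401-134925513), which encodes p27, had few reads throughout. It measured 1.27, 0.826 and 1.79 RPKM in F replicates 1, 4 and 5 and 0.245, 0.181 and 0.127 in 2d-U replicates 1, 2 and 3. In 5d-U replicates 1, 2 and 6 it measured 0.717, 0.399 and 1.97 RPKM, and in 2+3d-C replicates 4, 5 and 10 it had 235, 3 and 3 reads, or 0.968, 0.0796 and 0.0301 RPKM. The 2d-U libraries lay below those of F and 5d-U. Reads on silent families would predict 22.9 of the 117 reads of F replicate 4 and 32.5 of the 322 of F replicate 5. They would predict 17.4 of the 75 reads of 5d-U replicate 1. No comparison of Cdkn1b passed, the nearest being 2d-U against F (log2 difference -2.81 ± 1.20, adjusted p = 0.0650), which was called by DESeq2 (0.0131), with the compared groups alone (0.00660) and without 2+3d-C replicate 4 (0.0361) or 10 (0.0373). Without 2+3d-C replicate 4, the mean level in 5d-U was at least 18.7-fold and in F at least 23.6-fold that of 3 reads per library in 2+3d-C, and these differences were called (adjusted p = 0.0345 and 0.0464). Cdkn1b protein is known to be set largely after transcription, and the genes of its turnover are given with the other lists.

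Of the INK4 genes, Cdkn2b (chr4:89306299-89311039), which encodes p15, an inhibitor known to respond to TGF-beta, differed most between compressed and uncompressed cells at day 5. It measured 7.17, 56.8 and 149.6 RPKM in 5d-U replicates 1, 2 and 6 (229, 2264 and 4250 reads). In 2+3d-C it had 64 reads in replicate 4 (0.863 RPKM) and none in replicates 5 and 10. The 2d-U libraries measured 6.16, 5.41 and 6.84 RPKM, and F replicates 1, 4 and 5 measured 0.599, 5.32 and 1.29. All 2+3d-C libraries lay below all libraries of 2d-U and 5d-U, and replicate 4 overlapped with F. The fitted log2 difference of 2+3d-C was -7.67 ± 1.51 to 5d-U (adjusted p = 0.00257), -4.14 ± 1.30 to 2d-U (adjusted p = 0.0318) and -2.79 ± 1.24 to F (adjusted p = 0.124). The last was called by DESeq2 (0.0486), with no filter on low counts (0.00710), with a replicate block (0.0242) and without 2+3d-C replicate 4 (0.0212). The call against 5d-U held in all 9 other settings and without each of the 6 libraries compared, and that against 2d-U was lost without 2+3d-C replicate 5 (0.0630) and in a fit of the libraries of these groups alone (0.101). With 2+3d-C replicate 4 left out, the mean of 5d-U was at least 396-fold, that of 2d-U at least 34.2-fold and that of F at least 13.4-fold that of 3 reads per library in 2+3d-C (0.180 RPKM). Single libraries lay closer to it, with 5d-U replicate 1 at 7.17 and F replicate 1 at 0.599 RPKM. 5d-U lay above F by 4.89 ± 1.32 (adjusted p = 0.0157), a call that was lost without F replicate 1 (3.88, adjusted p = 0.0989) or 5 (4.58, 0.0715) or 5d-U replicate 6 (3.75, 0.0908), and above 2d-U by 3.53 ± 1.24 (adjusted p = 0.104), which was called by DESeq2 (0.0477), with no filter (0.000548) and without 5d-U replicate 1 (0.0489) or 2+3d-C replicate 10 (0.0493). The levels within 5d-U spanned 7.17 to 149.6 RPKM and went with the summed markers of mature myofibers, which were 103, 928.5 and 1569 RPKM in replicates 1, 2 and 6, and the part of differentiated cells was not tested.

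Cdkn2c (chr4:109660876-109667189), which encodes p18, was evenly high in uncompressed culture. It measured 16.0, 11.1 and 17.3 RPKM in 2d-U replicates 1, 2 and 3 and 13.7, 16.2 and 17.5 in 5d-U replicates 1, 2 and 6. F replicates 1, 4 and 5 measured 4.43, 2.57 and 1.90 RPKM, and 2+3d-C replicates 4, 5 and 10 had 283, 0 and 1 reads, or 1.98, 0 and 0.0170 RPKM. Both uncompressed cultures lay above all libraries of F and 2+3d-C, and replicate 4 of 2+3d-C lay within the range of F. The log2 difference of 2+3d-C was -4.49 ± 1.21 to 5d-U (adjusted p = 0.0163), -4.39 ± 1.21 to 2d-U (adjusted p = 0.0166) and -2.07 ± 1.10 to F (adjusted p = 0.180). The first 2 calls were lost in fits of the compared groups alone (0.0624 and 0.0813) and with a replicate block (0.0599 and 0.118). Without replicate 4 of 2+3d-C, the mean of 5d-U was at least 170.2-fold, that of 2d-U at least 159-fold and that of F at least 31.9-fold above 3 reads per library, and all 3 differences were called. 2d-U exceeded F by 2.32 ± 1.10 and 5d-U by 2.42 ± 1.10 on the log2 scale (adjusted p = 0.0907 and 0.151). Both were called without 2+3d-C replicate 4 (0.00400 and 0.00364) or 10 (0.0323 and 0.0432), with no filter (0.00662 and 0.0184) and with the compared groups alone (0.00445 and 0.00463), and the first also without 2+3d-C replicate 5 (0.0421).

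Cdkn2a (chr4:89274471-89294653) lies next to Cdkn2b and encodes p16INK4a and, in another reading frame, p19ARF, which counts per gene do not separate. It had 0, 21 and 15 reads in F, at most 0.576 RPKM, and 0.710, 1.14 and 1.06 RPKM in 2d-U replicates 1, 2 and 3. In 5d-U replicates 1, 2 and 6 it measured 2.26, 1.82 and 9.64 RPKM, and in 2+3d-C replicates 4, 5 and 10 it had 49, 0 and 0 reads. The 5d-U libraries lay above those of every other group. Reads on silent families would predict 5.90 of the 21 reads of F replicate 4 and 8.36 of the 15 of F replicate 5. They would predict 4.47 of the 61 reads of 5d-U replicate 1. No comparison passed, and the log2 difference of 2+3d-C to 5d-U was -3.99 ± 1.72 (adjusted p = 0.0970), with a call by DESeq2 (0.0395). Without 2+3d-C replicate 4 it was called (adjusted p = 0.0184), with the mean of 5d-U at least 21.5-fold above 3 reads per library. 5d-U against F (3.90 ± 1.72, adjusted p = 0.133) was called with the libraries of these groups alone (0.0400).

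Cdkn2d (chr9:21288410-21291407), which encodes p19INK4d, had the smallest span of group means among the INK4 genes (3.57-fold). It measured 24.5, 25.6 and 15.3 RPKM in F replicates 1, 4 and 5 and 21.0, 19.5 and 16.7 in 2d-U replicates 1, 2 and 3. In 5d-U replicates 1, 2 and 6 it measured 13.4, 32.2 and 111 RPKM, and in 2+3d-C replicates 4, 5 and 10 it measured 6.27, 33.6 and 4.04. All 4 groups overlapped with at least one other, and no comparison passed. The log2 difference of 2+3d-C to 5d-U was -1.85 ± 0.80 (adjusted p = 0.0968), and it was called without 2+3d-C replicate 5 (-3.35 ± 0.76, adjusted p = 0.00594) or without 5d-U replicate 1 (-2.32 ± 0.74, adjusted p = 0.0357). Without 5d-U replicate 6, the library with the highest level, it was -0.66 (adjusted p = 0.525).

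The mix of inhibitors within a library does not depend on the scaling between libraries. Cdkn1a made up 66.0% to 73.9% of the summed RPKM of the 7 inhibitors across F, 51.1% to 57.0% across 2d-U, 60.8% to 82.8% across 5d-U and 85.5% to 87.4% across 2+3d-C. Of the other 6, Cdkn1c held 46.8% to 52.9% of the RPKM in F and 53.6% to 86.9% in 2+3d-C, and it was the largest of them in all 6 libraries. In 2d-U, where Cdkn1c held at most 0.461%, Cdkn2c (29.8% to 41.2%) and Cdkn2d (39.7% to 52.2%) were the largest, and in 5d-U replicates 2 and 6 Cdkn2b was (51.7% and 50.4%). In 5d-U replicate 1 Cdkn2c was the largest, as in 2d-U replicate 3, with 36.3% Cdkn2c, 35.3% Cdkn2d and 18.9% Cdkn2b.

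**Figure D4:**
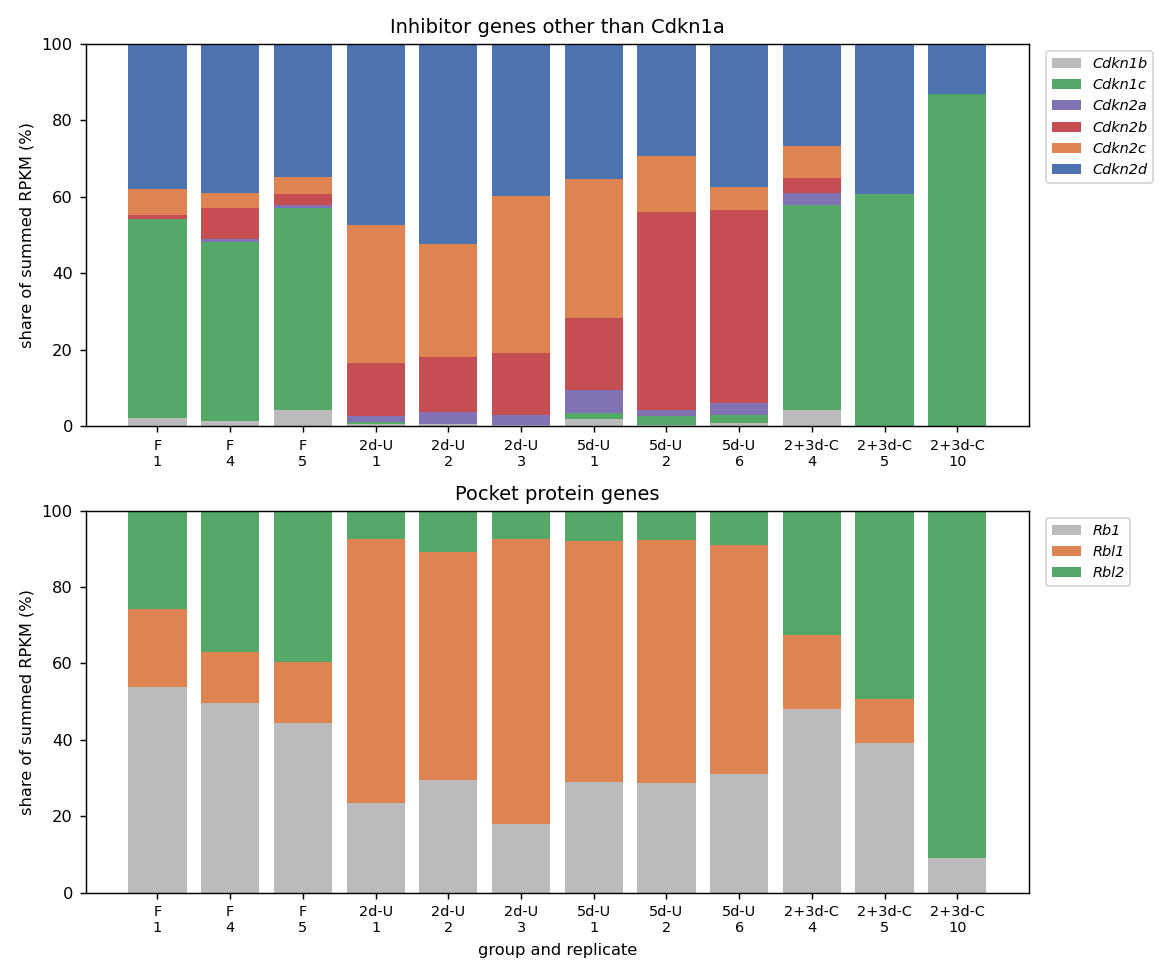
Share (%) of each gene in the summed RPKM of the 6 inhibitors other than Cdkn1a (top) and of the 3 pocket proteins (bottom), for each library by group and replicate number. Cdkn1c holds 46.8% to 86.9% in F and 2+3d-C, and Rbl1 holds 59.7% to 74.7% of the pocket protein RPKM in 2d-U and 5d-U and at most 20.4% in F and 2+3d-C.

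Among the pocket proteins, Rbl2 (chr8:91070057-91123844), which encodes p130, had its highest mean in F. It measured 2.85, 2.84 and 3.60 RPKM in F replicates 1, 4 and 5, then 0.728, 0.767 and 0.469 in 2d-U replicates 1, 2 and 3 and 0.512, 0.725 and 0.505 in 5d-U replicates 1, 2 and 6. In 2+3d-C replicates 4, 5 and 10 it measured 2.93, 0.432 and 2.47 RPKM (1181, 27 and 409 reads). Replicate 4 lay within the range of F, replicate 10 lay below F and above every uncompressed culture, and replicate 5, the library with the fewest reads, lay below all uncompressed cultures. The log2 difference to F was -2.24 ± 0.69 in 2d-U (adjusted p = 0.0228) and -2.41 ± 0.70 in 5d-U (adjusted p = 0.0229). The call in 2d-U was lost without F replicate 4 (0.0526) or 5 (0.0707) or 2d-U replicate 1, 2 or 3 (0.0722, 0.0676 and 0.0918), and with the term for libraries with reads on silent families, in which the difference was -2.37 (adjusted p = 0.0615). The call in 5d-U was lost without F replicate 4 (0.0563) or 5 (0.0804) or 5d-U replicate 1, 2 or 6 (0.0896, 0.0653 and 0.107). With a replicate block, the calls in 2d-U (-2.07, adjusted p = 0.3385) and 5d-U (-2.36, adjusted p = 0.306) were both lost. Of the 89 reads of 5d-U replicate 1, 28.8 would be expected from the reads on silent families. 2+3d-C exceeded 5d-U by 1.75 ± 0.68 on the log2 scale (adjusted p = 0.0757) and its difference to F was -0.67 ± 0.67 (adjusted p = 0.507). The first difference was called without 2+3d-C replicate 5 (2.21 ± 0.57, adjusted p = 0.0131), by DESeq2 (adjusted p = 0.00767), among genes of at least 5 CPM (0.0413) and after subtraction of the reads that silent families predict (0.0408). Against 2d-U, 2+3d-C measured 1.57 ± 0.68 (adjusted p = 0.103), called by DESeq2 (0.0375) and without 2+3d-C replicate 5 (0.0197). The part of the other cell types in the level of Rbl2, which was high in F as their markers were, was not tested. The exons of Rbl2 overlap genes on the other strand over 21.0% of their length.

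Rbl1 (chr2:157145893-157204534), which encodes p107 and has the E2F-like letters shown above next to its start, had its highest levels in the uncompressed cultures. It measured 6.70, 4.22 and 4.70 RPKM in 2d-U replicates 1, 2 and 3 and 4.13, 5.99 and 3.31 in 5d-U replicates 1, 2 and 6. F replicates 1, 4 and 5 measured 2.25, 1.04 and 1.47 RPKM, and 2+3d-C replicates 4, 5 and 10 had 553, 5 and 0 reads, or 1.73, 0.101 and 0 RPKM. Every library of 2d-U and 5d-U lay above all libraries of F and 2+3d-C. None of these differences was called in the fit of all 12 libraries. The log2 difference of 2+3d-C was -2.84 ± 1.19 to 5d-U (adjusted p = 0.0902) and -3.06 ± 1.20 to 2d-U (adjusted p = 0.0757), and both were called without 2+3d-C replicate 4 (adjusted p = 0.00102 and 0.000687), by DESeq2 (0.0467 and 0.0189) and with no filter on low counts (0.00882 and 0.00135). 2d-U against F was called with the libraries of these groups alone (1.61 ± 0.39, adjusted p = 0.0131), as was 5d-U against F (1.61 ± 0.49, adjusted p = 0.0329), whereas in the fit of all libraries they measured 1.72 ± 1.14 and 1.497 ± 1.13 (adjusted p = 0.223 and 0.445).

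Within a library, the RPKM of Rbl2 was 1.27, 2.73 and 2.46 times that of Rbl1 in F replicates 1, 4 and 5. The ratio was 0.109, 0.182 and 0.0998 for the 2d-U libraries and 0.124, 0.121 and 0.153 for those of 5d-U. In 2+3d-C it was 1.69 in replicate 4 and 4.28 in replicate 5, on 27 and 5 reads, while replicate 10 had 409 reads of Rbl2 and none of Rbl1. The ratio was thus above 1 in all libraries of F and in both of 2+3d-C that gave one, and below 0.2 in all uncompressed cultures. The ratio is given as a description and was not tested.

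Rb1 (chr14:73183673-73325822) measured 5.93, 3.81 and 4.03 RPKM in F replicates 1, 4 and 5, 2.28, 2.07 and 1.12 in 2d-U replicates 1, 2 and 3 and 1.89, 2.69 and 1.72 in 5d-U replicates 1, 2 and 6. In 2+3d-C replicates 4, 5 and 10 it had 1387, 17 and 32 reads, or 4.32, 0.341 and 0.243 RPKM. F lay above both uncompressed cultures, and the 2+3d-C libraries lay on both sides of them. No comparison passed (2+3d-C to 5d-U -0.35 ± 0.85, adjusted p = 0.766; 2d-U to F -1.33 ± 0.87, adjusted p = 0.216, called with the compared groups alone at 0.0182). Without replicate 4, the difference of 2+3d-C was -2.87 ± 0.70 to 5d-U (adjusted p = 0.0119), -2.66 ± 0.70 to 2d-U (adjusted p = 0.0147) and -3.97 ± 0.74 to F (adjusted p = 0.00694), all called lower. The exons overlap genes on the other strand over 14.9% of their length.

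Ranked by group means, the order was 5d-U, 2+3d-C, F and 2d-U for Cdkn1a and 2+3d-C, F, 5d-U and 2d-U for Cdkn1c. It was 5d-U, 2d-U, F and 2+3d-C for Cdkn2a, Cdkn2b and Cdkn2c. Of the neighbours in these orders, F and 2d-U passed the edgeR test for Cdkn1a, as did F and 5d-U, and 5d-U and 2d-U, for Cdkn1c, and no neighbours passed for the 3 INK4 genes. Some neighbours did not overlap although they did not pass, namely 5d-U above 2d-U and 2d-U above F for Cdkn2a (means 4.72-fold and 3.23-fold apart) and for Cdkn2b (11.6-fold and 2.55-fold), and 2d-U above F for Cdkn2c (4.98-fold). The order was F, 5d-U, 2+3d-C and 2d-U for Cdkn1b, 5d-U then F, 2d-U and 2+3d-C for Cdkn2d, F then 5d-U, 2d-U and last 2+3d-C for Rb1, 2d-U, 5d-U, F and 2+3d-C for Rbl1, and F, 2+3d-C, 2d-U and 5d-U for Rbl2, and no neighbours in them passed, although F lay above 5d-U without overlap for Rb1 (2.18-fold) and 5d-U above F for Rbl1 (2.82-fold). The span from the lowest to the highest group mean was 449-fold for Cdkn1c and 247-fold for Cdkn2b, 23.8-fold for Cdkn2c, and 2.80-fold for Rb1.

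The other genes of the pathway showed which partners of these inhibitors were present. All 8 G1 cyclins and kinases were lower in 2+3d-C than 5d-U (median log2 difference -2.96). Cdk4, the kinase that INK4 proteins bind, measured 349 ± 121 RPKM in 5d-U and 44.7 ± 10.6 in 2+3d-C (SD, n = 3; log2 difference -2.97 ± 0.40, adjusted p = 0.000179). Ccnd1, its cyclin, went from 151 ± 91.9 to 3.28 ± 2.45 RPKM (-5.54 ± 0.85, adjusted p = 0.000474), and Ccnd2 from 15.02 ± 1.72 to 2.13 ± 0.67 (-2.82 ± 0.40, adjusted p = 0.000258). Ccne1, the cyclin of Cdk2, went from 47.1 ± 18.3 to 0.213 ± 0.340 (-7.53 ± 1.06, adjusted p = 0.000254). In F, Cdk4 stood at 23.7 ± 6.14 RPKM and Ccnd1 at 4.86 ± 2.56, and against F 2 of the 8, Ccnd2 and Ccne1, were lower in 2+3d-C and 0 higher. The 4 S and M phase genes were all lower in 2+3d-C than 5d-U, with Cdk1 at 153 ± 77.7 and 0.241 ± 0.298 RPKM (-9.23 ± 1.07, adjusted p = 5.23e-05), Ccnb1 at 74.3 ± 21.3 and 0.112 ± 0.170, and Ccnb2 at 139 ± 64.1 and 0.234 ± 0.331. Compared with F, 3 of these 4 were called lower in 2+3d-C and 0 higher (median log2 difference -3.43), where 4.47% of all genes were called lower.

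Of the 10 E2F and DP genes, 5 were lower and 2 higher in 2+3d-C than 5d-U (median -1.34). The 2 that were higher were E2f5, at 49.8 ± 21.5 and 11.2 ± 4.95 RPKM (2.15 ± 0.54, adjusted p = 0.0113), and E2f4, at 52.7 ± 0.429 and 25.4 ± 3.63 RPKM (1.05 ± 0.35, adjusted p = 0.0451), the factors that p130 binds in resting cells. E2f4 was higher still in 2d-U, at 140.2 ± 11.4 RPKM, and stood at 21.3 ± 6.81 in F. The log2 difference was -4.74 ± 1.02 for E2f2 (adjusted p = 0.00429) and -6.34 ± 0.92 for E2f7 (adjusted p = 0.000309), and E2f1 also passed. E2f8, a repressor made in S phase, had no read in any 2+3d-C library and was at least 69.9-fold lower there than in 5d-U. Tfdp1, the DP partner, was at 23.1 ± 11.1 and 74.5 ± 27.3 RPKM (-1.69 ± 0.45, adjusted p = 0.0147). Of the 7 genes for the MuvB core with B-Myb and FoxM1, 2 were lower in 2+3d-C, Mybl2 (-4.57 ± 1.45, adjusted p = 0.0350) and Rbbp4 (-1.61 ± 0.40, adjusted p = 0.00957), while Lin37 measured -1.57 ± 0.66 (adjusted p = 0.0902).

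Of 16 E2F targets of S phase entry, 14 were lower and 0 higher in 2+3d-C than 5d-U (median -3.34), and 15 were lower than in 2d-U. Rrm2, a subunit of ribonucleotide reductase, measured 871 ± 154 RPKM in 5d-U and 10.3 ± 8.08 in 2+3d-C (-6.41 ± 0.94, adjusted p = 0.000329), and the differences of Tk1 and Mcm6 were -6.76 ± 0.73 and -3.44 ± 0.46 (adjusted p = 3.35e-05 and 0.000174). That of Mcm3 was -2.11 ± 0.48 (adjusted p = 0.00603). Pcna, at 63.8 ± 38.4 and 159.9 ± 84.9 RPKM, did not pass (adjusted p = 0.0830). Between F and 2+3d-C, 1 of the 16, Mcm7, was higher in 2+3d-C and 0 lower, while against F 14 were higher in 2d-U and 13 at day 5 without compression. The groups with high Rbl1 and Cdkn2c were thus those with high S phase genes.

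Of 6 genes for the turnover of Cip/Kip proteins, 3 were lower in 2+3d-C than 5d-U. Skp2, the F-box protein that recognizes p27, was at 0.542 ± 0.598 and 10.9 ± 4.54 RPKM (-4.38 ± 0.90, adjusted p = 0.00338), its cofactor Cks1b at 25.1 ± 15.6 and 689 ± 539.8 RPKM (-4.78 ± 0.66, adjusted p = 0.000210), and Rbx1 at 36.5 ± 28.2 and 120.4 ± 70.8 RPKM (adjusted p = 0.0385). Skp1a and Cul1 of the same ligase did not pass (adjusted p = 0.362 and 0.364). Of 11 transcriptional regulators of inhibitors, 2 were lower and 5 higher in 2+3d-C than 5d-U (median 0.51). Smad3, which transmits TGF-beta signals, was at 24.4 ± 12.6 and 0.380 ± 0.100 RPKM (6.00 ± 0.67, adjusted p = 4.13e-05), and Myc, a known repressor of Cdkn2b and Cdkn1a, at 2036 ± 742 and 75.3 ± 53.9 (4.76 ± 0.58, adjusted p = 7.74e-05). Foxo1 was at 10.9 ± 1.89 and 1.95 ± 0.150 RPKM (2.48 ± 0.43, adjusted p = 0.00109), beside 14.4 ± 1.32 in F. Bmi1, a Polycomb repressor of the Cdkn2a locus, was at 4.67 ± 1.69 and 24.1 ± 9.55 RPKM (-2.37 ± 0.46, adjusted p = 0.00245). Ring1 and Cbx7, which were higher, and Ezh2, which was lower, complete these counts. E2f1, Mcm7, Ring1, Cbx7 and Ezh2 were named after their values were seen.

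**Figure D5:**
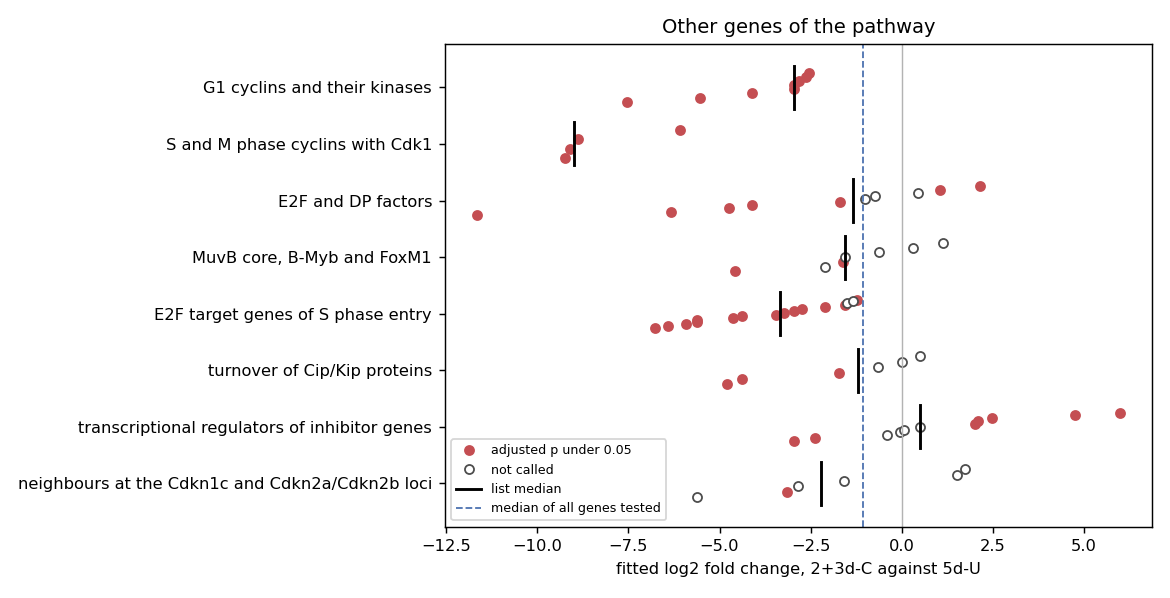
Fitted log2 fold change of each other gene of the pathway in 2+3d-C against 5d-U, by list, filled where the adjusted p was under 0.05, with the list median as a black bar and the median of all genes tested (-1.05) as a dashed line. All 8 G1 and all 4 S and M phase genes lie below 0, and E2f4 and E2f5 lie above it.

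The genes most like each member over the 12 libraries were sought among 8787 named genes of at least 10 CPM, by Pearson's r of log2 CPM. For Cdkn1c they were Sgce (0.979), Ctsf (0.969) and Ly6c1 (0.957). For Cdkn1a they were Akap9 (0.955), Sdf2 (0.941) and Idnk (0.928), and for Cdkn2b Bbc3 (0.978), Rassf7 (0.975) and H19 (0.973). Cdkn2c was closest to Hibch (0.990), Nit1 (0.983) and Zfp930 (0.983), and Cdkn2d to Tpd52l1 (0.937), Auh (0.932) and Ndufv3 (0.921). Rb1 was closest to Tbc1d20 (0.953), Sipa1l1 (0.936) and Agtpbp1 (0.926), Rbl1 to Ints2 (0.984), Tti1 (0.983) and Pms1 (0.979), and Rbl2 to Usp25 (0.971), Ano6 (0.971) and Ahcyl2 (0.963). Cdkn1b and Cdkn2a averaged under 5 CPM and were not ranked. These values describe 12 libraries that share depth, scaling and groups.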

How the data were processed

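RNA of 12 libraries of sorted MuSCs was read from one end after amplification of cDNA with the SMART-seq v4 kit. The authors aligned the reads to mm10 with nf-core RNA-seq 1.4.2 and deposited counts per gene from featureCounts 1.6.4 on GENCODE vM23, without regard to strand and without normalization. A merged table of the same counts had 12 columns identical to the single files. The 10 genes and all lists were chosen with earlier results of these data known.

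Counts were tested with edgeR 4.0.16 in R 4.3.3. Genes kept by filterByExpr (22635) were scaled by TMM, 1 quasi-likelihood model was fitted to all 12 libraries, and each contrast was tested two-sided with Benjamini-Hochberg adjustment over all tested genes. Calls required an adjusted p under 0.05, and the standard error is the log2 fold change divided by the root of F. The procedure was tested on simulated counts in which only large changes were planted, so that test does not show how often smaller differences are found. Where all libraries of a group, or all that remained after 1 was left out, had 3 or fewer reads, folds are given against 3 reads in each library. They compare the mean of the other group, and limits and intervals of this kind cover counting error only. Promoter windows are RefSeq sequences (GRCm38.p6). Lists were G1 cyclins and kinases, S and M phase genes, E2F and DP factors, the MuvB core with B-Myb and FoxM1, E2F targets, turnover of Cip/Kip proteins, regulators, neighbours at the Cdkn1c and Cdkn2a/Cdkn2b loci, and markers of 8 cell types. The genes named were the 10 members, in each other list the 3 with the smallest p in 2+3d-C against 5d-U and the 3 with the highest mean RPKM, and for each member of at least 5 CPM the 3 genes of highest correlation. Alternatives were DESeq2 1.42.0, library size without TMM, scaling without mitochondrial genes, no filter or a mean of at least 5 CPM, a replicate block, the compared groups alone, removal of background reads (exon length times reads per kb on silent families) or a term for the libraries with such reads, and leaving out each library.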

Additional observations from a re-analysis of the deposited data

How the results depend on the processing

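Over the 10 genes and 6 comparisons, 1137 of 1248 alternative fold changes kept their side of the threshold, 60 lost and 51 gained a call, and no called value changed sign. The number of members called is given here with the share of all genes called in the same fit. It was 6 in 2+3d-C against 5d-U by DESeq2 (31.9% of all genes, 3 members as reported). In 2+3d-C against F it was 1 by DESeq2 (18.2%) and 1 with no filter on low counts (5.60%), with 0 as reported. With the libraries of the compared groups alone it was 2 in 2+3d-C against 2d-U (29.3% of all genes, 4 members as reported) and 1 in 5d-U against 2d-U (5.28%, 2 as reported). In these fits it was 7 in 2d-U against F (51.0%) and 6 in 5d-U against F (27.8%), with 3 as reported for each. In 5d-U against 2d-U it was 1 without TMM (0.755%), 0 after subtraction of background reads (0.706%) and 0 with a term for background libraries (0.181%). That term left 1 in 2d-U against F (22.7%). The cause of these shifts was not tested. The labels do not say whether libraries with the same replicate number share a sort. Deviations of same-numbered libraries from their group means correlated at -0.42 to 0.032, which cannot decide it with 3 libraries per group. With the replicate block, 1, 2, 1, 1, 1 and 1 members were called in 2+3d-C against 5d-U, 2d-U and F, 5d-U against 2d-U, 2d-U against F and 5d-U against F, and Cdkn2d, not called, measured 0.04 in the first. Of all genes, the fit with the block called 16.9%, 8.51%, 8.66%, 2.98%, 12.1% and 5.57% in the same order. Leaving out each library in turn gave 2 to 7, 4 to 7, 0 to 5, 0 to 3, 1 to 5 and 0 to 4 members in the same order, the highest of the first 3 without 2+3d-C replicate 4. Over these fits the share of all genes called was 11.3% to 19.1%, 13.5% to 21.1%, 1.04% to 36.3%, 0.565% to 4.78%, 18.6% to 59.6% and 11.2% to 19.0%. Library size without TMM shifted the log2 differences by a median over genes of -0.13, -0.52, -0.45, -0.37, 0.07 and -0.30, and DESeq2's size factors by 0.17, -0.04, -0.23, -0.22, -0.18 and -0.40. Under both, Cdkn1c in 2+3d-C against F and Cdkn2c and Rb1 in 5d-U against 2d-U, none of them called, changed sign. Over all genes, the counts called in the same order were 5110, 5573, 1449, 479, 9922 and 4643, and over the settings that keep every library they ranged from 3115 to 7223, 1926 to 7402, 205 to 4127, 41 to 2808, 2739 to 13205 and 1261 to 6594. Depth limits the low levels: 3 reads correspond to 0.180 RPKM of Cdkn2b on average over 2+3d-C replicates 5 and 10.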

Other observations

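Among neighbours of these genes on their chromosomes, 1 of 6 was called in 2+3d-C against 5d-U. Mtap, a metabolic gene beside Cdkn2a and Cdkn2b, was at 15.6 ± 4.58 RPKM in 2+3d-C and 139 ± 8.85 in 5d-U (SD, n = 3; log2 difference -3.16 ± 0.38, adjusted p = 7.69e-05), with 142 ± 13.7 in 2d-U and 10.3 ± 2.24 in F. In the imprinted region of Cdkn1c, the long noncoding RNA Kcnq1ot1 was at 1.31 ± 0.635 RPKM in 2+3d-C, 0.458 ± 0.586 in 5d-U, 0.0669 ± 0.00700 in 2d-U and 0.479 ± 0.0874 in F (2+3d-C to 5d-U 1.51 ± 0.73, adjusted p = 0.122). Phlda2 of the same region was at 2.02 ± 2.77 and 0.598 ± 0.465 RPKM in 2+3d-C and 5d-U (adjusted p = 0.406). The median log2 difference of the 6 neighbours was -2.23, or -0.25 with the genes under 3 reads at their bound, since Dmrta1 and Kcnq1 had 3 or fewer reads in each 2+3d-C library (Kcnq1 was named after its values were seen).

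Among the 10 genes, log2 CPM over the 12 libraries correlated most between Cdkn2c and Rbl1 (Pearson's r = 0.938), Cdkn2a and Cdkn2b (0.915), Cdkn2b and Cdkn2c (0.888) and Cdkn1b and Rb1 (0.828). The lowest were Cdkn1c with Cdkn2c (-0.634) and with Rbl1 (-0.578). These are descriptions of libraries that share groups and scaling, and 2+3d-C replicates 5 and 10, with few or no reads of several of these genes, enter all of them.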
